A study of Mus musculus with 12 samples.

Results

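The lipoxygenase and leukotriene genes described here are the 5-lipoxygenase Alox5, its activating protein Alox5ap, the leukotriene A4 hydrolase Lta4h, the leukotriene C4 synthase Ltc4s, the 12/15-lipoxygenase Alox15, and the receptors Ltb4r1 and Cysltr1. They were chosen by name, as the probes whose RefSeq accession maps to 1 of these 7 symbols, among 20887 genes named on the array. All 7 genes were found, with 8 probes: 6 genes had 1 probe and Cysltr1 had 2. Of the 7 genes, 6 passed the filter on dim probes (a signal well above background on every array of 1 group or more) and entered the tests of 13169 genes, and Alox15 did not.

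RNA was profiled on 12 one-colour Agilent arrays from adherent peritoneal macrophages of C57BL/6 mice, labelled WT, in 3 groups of 4. The LPS_IFNg_emodin group received lipopolysaccharide (LPS, a bacterial cell wall component) at 100 ng/ml, interferon gamma (IFNg, a T and NK cell cytokine) at 20 ng/ml and emodin, an anthraquinone from plants, at 50 μM for 20 hours. The LPS_IFNg group received the same LPS and IFNg without emodin, and the control group received vehicle for the same 20 hours. Mice of the LPS_IFNg_emodin and LPS_IFNg groups were female and aged 9 weeks, whereas those of the control group were aged 8 weeks, 2 labelled female and 2 male. All groups shared the overnight serum-free culture, and no label ties an array to 1 animal, so the p-values rest on the spread between the samples as deposited. The series title asks whether emodin inhibits this activation of macrophages.

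Leukotrienes are lipid mediators made from arachidonic acid, which phospholipases release from membranes. 5-lipoxygenase, presented with its substrate by the membrane protein encoded by Alox5ap, makes leukotriene A4, which Lta4h turns into the leukocyte attractant leukotriene B4 and Ltc4s joins to glutathione as leukotriene C4, the first of the cysteinyl leukotrienes. Ltb4r1 encodes the high-affinity receptor of leukotriene B4 and Cysltr1 a receptor of cysteinyl leukotrienes. Alox15, a marker of mouse resident peritoneal macrophages, oxidises the same substrate at other carbons.

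Levels below are log2 processed signals relative to the 75th percentile of the array's spots, so that 0 is that percentile and 1 unit is a 2-fold difference. Levels of different probes cannot be set against each other. The 75th percentile itself was 435 to 547 in LPS_IFNg_emodin, 764 to 951 in LPS_IFNg and 745 to 969 in control arrays, and 45.4% to 50.8% of probes were well above background. The 8 LPS_IFNg_emodin and LPS_IFNg arrays shared 1 slide, with each of the 2 groups in a row of its own, and the 4 control arrays lay on another slide scanned in another session. Stimulation and slide therefore cannot be told apart in either comparison with control, nor can emodin and the row. Mouse age, 8 weeks in control and 9 weeks in both stimulated groups, cannot be told apart from stimulation either, and only the control group held mice labelled male. The activation checks were high after stimulation: Nos2, the inducible nitric oxide synthase, averaged 8.17 on LPS_IFNg_emodin arrays, 9.63 on LPS_IFNg arrays and -1.83 on control arrays. The tissue label names peritoneal macrophages while the design text names another leukocyte. Of 12 macrophage markers with a probe, 11, 11 and 12 were well above background on all 4 arrays of the LPS_IFNg_emodin, LPS_IFNg and control groups. Of 11 neutrophil markers with a probe, 5 (S100a8, Elane, Camp, Mmp8 and Csf3r) were so on all 12 arrays and 1, Ngp, on none.

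RefSeq promoter windows on GRCm38.p6 were found for 4 of the 7 genes, Alox5, Lta4h, Ltc4s and Ltb4r1. The 250 bases before the start site are shown for the 3 of them that were called higher with emodin than in LPS_IFNg on the array's own scale, with matches to GGGCGG, the core of the Sp1 motif, on either strand in capitals.
Alox5 (chr6:116461179-116461428, minus strand): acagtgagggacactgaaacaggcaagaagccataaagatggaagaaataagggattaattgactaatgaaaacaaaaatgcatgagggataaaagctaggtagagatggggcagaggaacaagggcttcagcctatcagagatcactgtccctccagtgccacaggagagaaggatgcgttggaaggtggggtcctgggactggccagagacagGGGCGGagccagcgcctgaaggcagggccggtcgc
Ltc4s (chr11:50238533-50238782, minus strand): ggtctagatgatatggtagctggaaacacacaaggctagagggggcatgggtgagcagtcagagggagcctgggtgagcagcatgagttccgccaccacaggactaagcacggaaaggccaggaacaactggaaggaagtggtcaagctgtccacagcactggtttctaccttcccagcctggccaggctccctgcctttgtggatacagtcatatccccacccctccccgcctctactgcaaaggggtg
Ltb4r1 (chr14:55765712-55765961, plus strand): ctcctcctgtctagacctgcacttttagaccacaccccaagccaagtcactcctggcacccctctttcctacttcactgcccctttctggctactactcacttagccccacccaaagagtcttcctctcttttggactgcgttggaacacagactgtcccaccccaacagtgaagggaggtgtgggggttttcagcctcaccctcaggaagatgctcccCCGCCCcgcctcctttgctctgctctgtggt

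The capitals mark 1 GGGCGG beginning 35 bases before the Alox5 start, and 1 CCGCCC, the same motif on the other strand, beginning 31 bases before the Ltb4r1 start. The letters of the STAT6 motif, of the NF-kB consensus and of a paired interferon regulatory factor motif were searched on both strands of the 4 windows of 300 bases, and none matched. For comparison, 32851 promoter windows of this length were searched, with 1 chromosome left out. There the shares with a match were 6.95%, 0.155% and 3.44%, and 35.7% held GGGCGG, which was searched after the others. A match or its absence describes letters in the window only.

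Alox5, the enzyme that starts leukotriene synthesis, was the member that differed most between LPS_IFNg and control arrays. Its level was -4.32, -3.64, -3.95 and -3.80 on the LPS_IFNg_emodin arrays, -4.77, -6.49, -6.30 and -5.09 on the LPS_IFNg arrays, and -0.70, -1.31, -1.16 and -0.62 on the control arrays. All 4 control arrays were above all stimulated ones, and the LPS_IFNg_emodin arrays were all above the LPS_IFNg arrays. The signal was well above background on 3 of 4 LPS_IFNg_emodin arrays, on none of the LPS_IFNg arrays and on all 4 control arrays. In LPS_IFNg against control Alox5 was at least 9.58-fold lower, with a fitted log2 difference of -4.71 ± 0.35 (SE, limma adjusted p = 2.14e-07). With emodin the difference from LPS_IFNg was 1.74 ± 0.35 (limma adjusted p = 0.000851), which as a bound is at least 1.21-fold higher, since the LPS_IFNg signal has only an upper limit. LPS_IFNg_emodin arrays stayed below control arrays by a log2 difference of -2.98 ± 0.35 (limma adjusted p = 7.79e-06). With background corrected by normexp, which lifts dim signals, these 3 fitted differences were -2.30, 0.59 and -1.70.

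Neutrophils, eosinophils and mast cells also make leukotrienes, and markers of each were measured beside Alox5. Of the 11 neutrophil markers, 6, 5 and 7 were well above background on all 4 LPS_IFNg_emodin, LPS_IFNg and control arrays, and 3, 6 and 1 were so on none. The summed signal of these markers, in multiples of the 75th percentile, was 106 to 171 on LPS_IFNg_emodin arrays, 94.8 to 105 on LPS_IFNg arrays and 92.9 to 111 on control arrays. Such a sum is weighted to its brightest probes, here Csf3r, which averaged 6.70, 6.24 and 6.18 in these groups on the log2 scale. The granule gene Ltf averaged -3.97 on LPS_IFNg_emodin arrays, -6.10 on LPS_IFNg arrays and -1.30 on control arrays, the same order as Alox5, and was named after its values were seen. Mmp8 stood in that order too, at -0.20, -1.52 and 0.75 in the same 3 groups, and was well above background on all 12 arrays. So did Cxcr2, at -5.59, -5.85 and -4.10, which was well above background on no stimulated array. Other neutrophil markers had other orders: Camp averaged -3.12, -1.29 and -3.42, S100a8 2.91, 3.75 and 3.16, and Elane 4.34, 3.20 and 4.05 in the same 3 groups. The eosinophil granule genes Epx, Prg2 and Prg3 and the mast cell receptor gene Ms4a2 were not well above background on any of the 12 arrays. The eosinophil markers Siglecf, Ear2 and Ear6 and the mast cell markers Tpsb2 and Hdc were so on all 12. Siglecf averaged -0.97, -1.32 and 0.05 in the same 3 groups, Ear2 -1.42, -2.44 and -1.21 and Ear1 -3.50, -4.50 and -3.29, the order of Alox5. Ear6 (-3.10, -3.32 and -3.49), Tpsb2 (-1.64, -1.63 and -1.65) and Hdc (-1.79, 0.26 and -1.51) had other orders. The summed signal of 10 eosinophil markers, Alox15 among them, was 0.999 to 1.64 on LPS_IFNg_emodin arrays, 0.666 to 1.37 on LPS_IFNg arrays and 1.59 to 2.20 on control arrays. That of 9 mast cell markers was 0.698 to 2.29, 1.17 to 2.94 and 0.686 to 1.93 in the same 3 groups. In these bulk samples, fewer cells of a type and less RNA per cell cannot be told apart, and the part of such cells in the Alox5 result was not tested.

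Alox5ap followed the same order with far less spread. It was at 5.33, 5.24, 5.48 and 5.40 on LPS_IFNg_emodin arrays, at 4.30, 4.28, 4.23 and 4.39 on LPS_IFNg arrays, and at 6.06, 6.31, 6.31 and 5.91 on control arrays. The 3 groups did not overlap. Alox5ap was 3.60-fold lower in LPS_IFNg than in control, a log2 difference of -1.85 ± 0.10 (limma adjusted p = 8.68e-09). Against LPS_IFNg, emodin arrays were 2.09-fold higher, a difference of 1.06 ± 0.10 (limma adjusted p = 1.26e-06), and each of the 4 same-numbered pairs showed it, by 0.96 to 1.25. Against control they remained lower, by a difference of -0.79 ± 0.10 (limma adjusted p = 1.1e-05).

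**Figure D1:**
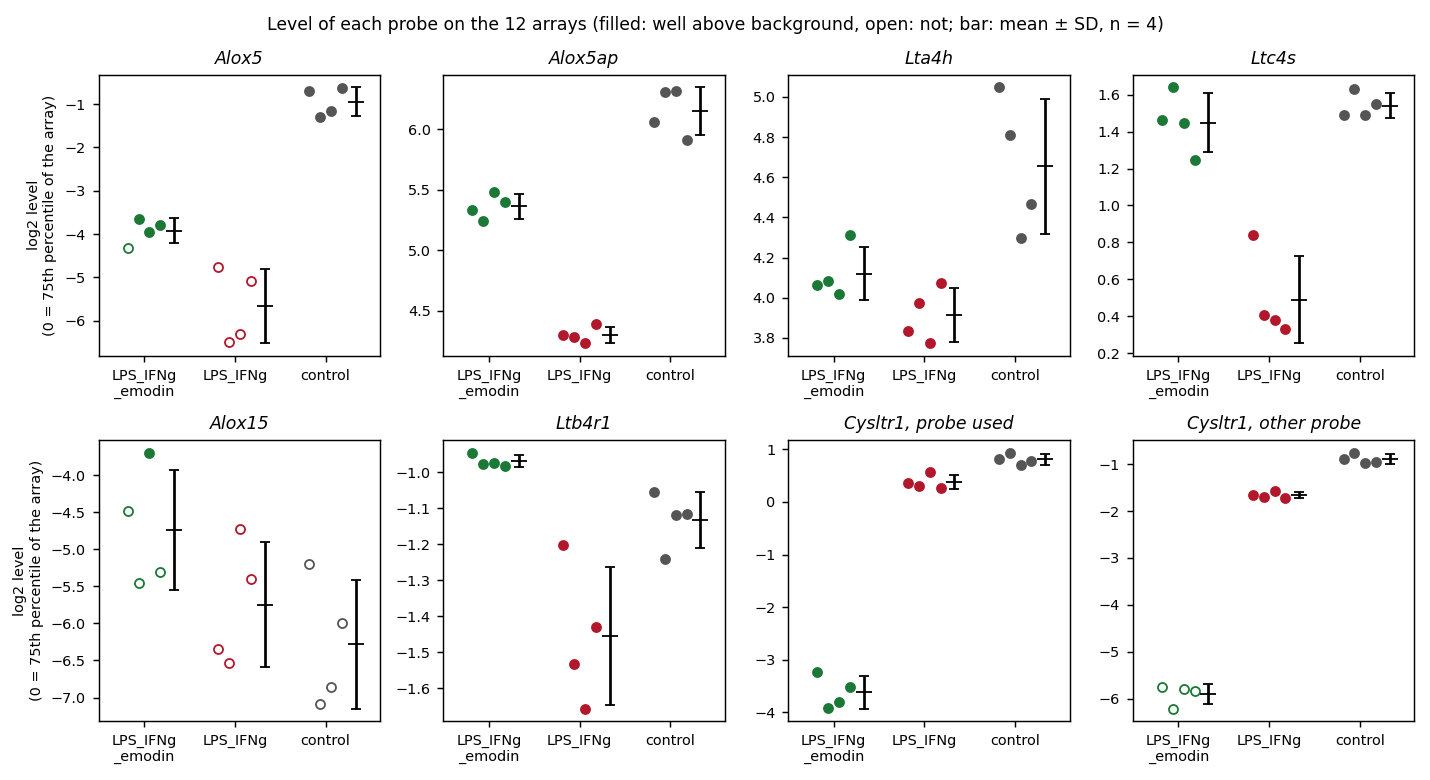
Log2 level of each of the 8 probes on every array (0 = 75th percentile of the array), by group from left to right LPS_IFNg_emodin, LPS_IFNg and control. Filled points were well above background, open points were not, and bars give the mean ± SD of 4 arrays; vertical scales differ between panels. The control arrays are highest for Alox5 and Alox5ap, and the LPS_IFNg_emodin arrays are lowest for both Cysltr1 probes.

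Of the 2 enzymes that share leukotriene A4, Ltc4s differed with emodin and Lta4h did not pass the test. Ltc4s was at 1.46, 1.64, 1.45 and 1.25 on LPS_IFNg_emodin arrays, at 0.84, 0.41, 0.38 and 0.33 on LPS_IFNg arrays and at 1.49, 1.63, 1.49 and 1.55 on control arrays. Every LPS_IFNg array was below every array of the other groups, which overlapped each other. Ltc4s fell in LPS_IFNg against control by 1.05 ± 0.12 on the log2 scale (limma adjusted p = 6.64e-06). Emodin arrays were 1.95-fold higher than LPS_IFNg arrays, a log2 difference of 0.96 ± 0.12 (limma adjusted p = 1.4e-05). Scaled to the spike-in RNAs this was 0.23 and not called (limma adjusted p = 0.132). The difference of emodin arrays from control arrays was -0.09 ± 0.12 (limma adjusted p = 0.485). The first LPS_IFNg array stood apart from the other 3, and without it the differences were -1.17 against control and 1.08 for emodin against LPS_IFNg.

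Lta4h was at 4.06, 4.08, 4.02 and 4.31 on LPS_IFNg_emodin arrays, at 3.83, 3.97, 3.77 and 4.07 on LPS_IFNg arrays and at 5.05, 4.81, 4.30 and 4.47 on control arrays. The LPS_IFNg_emodin arrays overlapped both other groups, with their highest array just above the lowest control array. In LPS_IFNg against control Lta4h fell by 0.74 ± 0.15 on the log2 scale (limma adjusted p = 0.000751), and in LPS_IFNg_emodin against control by 0.54 ± 0.15 (limma adjusted p = 0.00541). Emodin against LPS_IFNg gave 0.21 ± 0.15 (limma adjusted p = 0.224). With the replicate number as a block, on the arrays of these 2 groups, the same difference had a limma adjusted p of 0.0243: it was positive in all 4 same-numbered pairs, at 0.11 to 0.25.

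Alox15 was near background throughout. Its level was -4.49, -5.45, -3.69 and -5.31 on LPS_IFNg_emodin arrays, -6.34, -6.53, -4.72 and -5.40 on LPS_IFNg arrays and -5.19, -7.09, -6.86 and -5.99 on control arrays. The groups overlapped, and only the third LPS_IFNg_emodin array was well above background. Exact two-sided permutation tests over arrays gave p = 0.143 for emodin against LPS_IFNg, p = 0.4 for LPS_IFNg against control and p = 0.0857 for LPS_IFNg_emodin against control, where 4 against 4 arrays cannot give less than 0.0286. Alox15 had 1 probe, whose position in the transcript is not given in the sources used here. Gata6, the transcription factor of these resident macrophages, averaged -3.17 on LPS_IFNg_emodin arrays, -2.07 on LPS_IFNg arrays and -0.63 on control arrays and was well above background on all 12.

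Among the receptors, Cysltr1 differed most with emodin. With the probe used it was at -3.23, -3.92, -3.81 and -3.52 on LPS_IFNg_emodin arrays, at 0.37, 0.31, 0.57 and 0.26 on LPS_IFNg arrays and at 0.82, 0.94, 0.71 and 0.77 on control arrays. The emodin arrays lay far below both other groups, and all were well above background. Cysltr1 was 15.9-fold lower in LPS_IFNg_emodin than in LPS_IFNg, a log2 difference of -4.00 ± 0.14 (limma adjusted p = 8.25e-10), and 21.5-fold lower than in control. It was the 151st most lowered of 13169 genes in the first comparison and the 84th in the second. With normexp background correction the 2 log2 differences were -2.97 and -3.45. LPS_IFNg against control gave a difference of -0.43 ± 0.14 (limma adjusted p = 0.0137), with no overlap between the groups.

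The other Cysltr1 probe showed the same order. It was at -5.74, -6.21, -5.80 and -5.83 on LPS_IFNg_emodin arrays, where it was not well above background on any, at -1.66, -1.70, -1.57 and -1.71 on LPS_IFNg arrays and at -0.89, -0.76, -0.99 and -0.96 on control arrays. In the fit of all kept probes it was at least 6.00-fold lower with emodin than in LPS_IFNg (limma adjusted p = 1.07e-10) and at least 10.2-fold lower than in control. B cell and stromal markers also differed with emodin. The summed signal of 5 B cell markers was 0.125 to 0.298 on LPS_IFNg_emodin arrays, 0.553 to 1.73 on LPS_IFNg arrays and 0.857 to 1.99 on control arrays, and Cd79a and Ms4a1 were well above background on no LPS_IFNg_emodin array. That of 11 mesothelial and fibroblast markers was 10.8 to 35.2, 69.6 to 134 and 17.0 to 74.3 in the same groups. The part of these cells in the Cysltr1 result was not tested.

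Ltb4r1 showed small differences. It was at -0.95, -0.98, -0.97 and -0.98 on LPS_IFNg_emodin arrays, at -1.20, -1.53, -1.66 and -1.43 on LPS_IFNg arrays and at -1.05, -1.24, -1.12 and -1.12 on control arrays. The 2 last groups overlapped, while all emodin arrays lay above both. Emodin arrays were 1.40-fold higher than LPS_IFNg arrays, a log2 difference of 0.49 ± 0.09 (limma adjusted p = 0.000398), which turned to -0.24 when arrays were scaled to the spike-in RNAs. LPS_IFNg against control gave -0.32 ± 0.09 (limma adjusted p = 0.00663), and with normexp background correction -0.17 (limma adjusted p = 0.151). The difference of emodin arrays from control arrays, 0.16 ± 0.09, did not pass (limma adjusted p = 0.115).

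**Figure D2:**
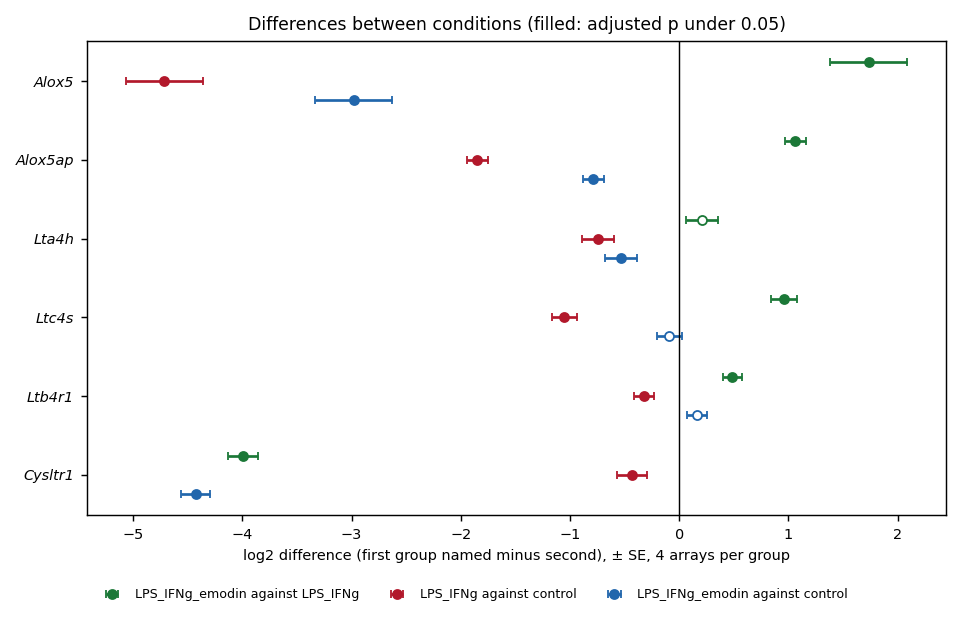
Log2 differences (first group named minus second) ± SE for the 6 tested genes, 4 arrays per group, in LPS_IFNg_emodin against LPS_IFNg, LPS_IFNg against control, and LPS_IFNg_emodin against control; filled points had a limma adjusted p under 0.05. Red points (LPS_IFNg against control) lie left of 0 for all 6 genes, and the green Cysltr1 point (emodin against LPS_IFNg) lies at -4.00 while the other 5 green points lie right of 0, of which Lta4h and Ltb4r1 turn on the spike-in scale.

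Over the 6 tested members, 4 rose and 1 fell in LPS_IFNg_emodin against LPS_IFNg (2 of the 4, Ltc4s and Ltb4r1, lost the call on the scale of spike-in RNAs), in a comparison where 72.2% of all 13169 genes were called, 36.6% up and 35.6% down. In LPS_IFNg against control all 6 fell, where 69.1% of genes were called, 33.6% up and 35.5% down. In LPS_IFNg_emodin against control 4 fell and 2 were not called, where 78% of genes were called, 39.8% up and 38.2% down. Groups did not overlap for 5, 5 and 4 of the 6 members in these 3 comparisons, beside 67.7%, 64.4% and 72.6% of all genes. Members both called and at least 2-fold apart numbered 3, 3 and 2, beside 26.6%, 26.3% and 38.5% of all genes. The median log2 difference over the members was 0.72, -0.90 and -0.66, beside 0.02, -0.04 and 0.02 over all genes tested. The first 2 comparisons share the LPS_IFNg arrays, so an array value that is low there pushes them in opposite directions. Side by side, emodin against LPS_IFNg and LPS_IFNg against control gave 1.74 and -4.71 for Alox5, 1.06 and -1.85 for Alox5ap, 0.96 and -1.05 for Ltc4s, and 0.49 and -0.32 for Ltb4r1, whereas Cysltr1 had -4.00 and -0.43.

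The signs with emodin depended on the scale. The median gene's unscaled signal differed by -0.89 ± 0.10 (SE, n = 4 per group) on the log2 scale between LPS_IFNg_emodin and LPS_IFNg arrays (exact permutation p = 0.0286). Spike-in RNAs, added as a reference, differed by -0.06 ± 0.06 between the same arrays (exact permutation p = 0.343). The differences above are thus relative to the array's own gene signal. On control arrays the spike-ins averaged 9.76 to 10.16 on the log2 scale, beside 12.31 to 12.55 on the stimulated arrays. Spike-in scaling was used for emodin against LPS_IFNg only, so the comparisons with control have no such check. On the scale of the spike-ins, Alox5 was 1.01 higher with emodin (limma adjusted p = 0.0122). Its signal was well above background on no LPS_IFNg array, and the unscaled signals of the groups overlapped. LPS_IFNg_emodin replicate 1 was at 21.8 and LPS_IFNg replicate 4 at 25.1. The fold bound given for Alox5 is on the array's own scale and was not computed on the spike-in scale. Scaled to the spike-ins, Alox5ap was 0.33 higher (limma adjusted p = 0.0464) and Cysltr1 lower, at -4.72. Ltc4s, at 0.23, was no longer called (limma adjusted p = 0.132), and Lta4h, at -0.52 (limma adjusted p = 0.0155), and Ltb4r1, at -0.24 (limma adjusted p = 0.0736), turned in direction. On that scale 1165 of 13169 genes were called up and 8883 down, against 4814 up and 4693 down on the array's own scale, and the median log2 difference of all genes was -0.71, against 0.02.

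**Figure D3:**
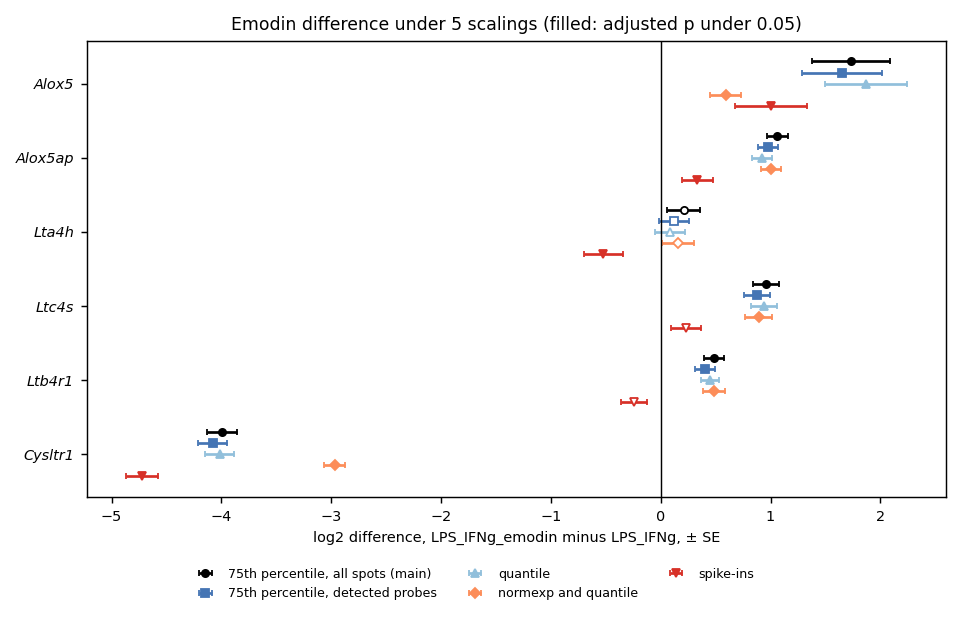
Log2 difference of LPS_IFNg_emodin from LPS_IFNg ± SE for the 6 tested genes, 4 arrays per group, under 5 scalings named in the legend; filled points had a limma adjusted p under 0.05. Alox5, Alox5ap and Cysltr1 keep their direction and call under all 5, while spike-in scaling (downward triangles) puts Lta4h and Ltb4r1 left of 0. The Alox5 signal was well above background on no LPS_IFNg array.

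A wider list of 68 genes around the pathway, of which 50 were tested, had calls in both directions. With emodin against LPS_IFNg, 11 rose and 25 fell, 72% called beside 72.2% of all genes, and in LPS_IFNg against control 21 rose and 19 fell, 80% called beside 69.1% of all genes. The counts by role below stand beside the same shares of all genes. On the spike-in scale the emodin counts were 3 and 38, so rises with emodin below are relative to the array's gene signal, and 4 of them turned on the spike-in scale: Pla2g4b, Cyp4f13, Gpx1 and Gpr132.

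Substrate release was mixed. Pla2g4a, the cytosolic phospholipase A2 that frees arachidonic acid, was at 2.40, 1.71, 1.74 and 2.19 on LPS_IFNg_emodin arrays, 3.94, 3.78, 4.02 and 3.94 on LPS_IFNg arrays and 1.66, 1.52, 1.06 and 1.32 on control arrays. The 3 groups did not overlap, and the LPS_IFNg arrays were highest, opposite to Alox5. Its log2 differences were -1.91 ± 0.17 for emodin against LPS_IFNg (limma adjusted p = 8.89e-07) and 2.53 ± 0.17 for LPS_IFNg against control (limma adjusted p = 6.67e-08). Lpcat2, which returns acyl chains to lyso-phospholipids and makes platelet-activating factor, rose by 1.24 in LPS_IFNg and was at least 4.71-fold lower with emodin than in LPS_IFNg. Over the 11 tested genes of this role 3 rose and 5 fell with emodin, and 5 rose and 4 fell in LPS_IFNg against control.

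Among the partners and kinases of 5-lipoxygenase, Cotl1, a coactosin-like protein that binds the enzyme, fell in LPS_IFNg against control by 0.81, and Mapkapk2, a kinase that phosphorylates it, rose by 0.98. Neither passed the test with emodin against LPS_IFNg, at -0.03 and 0.14, though with quantile normalization Cotl1 was called, at -0.36 (limma adjusted p = 0.0159). Mapk14, the other tested gene of this role, changed by -0.38 with emodin (limma adjusted p = 0.000228). In LPS_IFNg against control Mapk14 was not called, at -0.02. Of the other lipoxygenases, Alox12, Alox12e and Alox8 were not tested, since no group had all 4 arrays well above background. Alox12b rose by 1.36 in LPS_IFNg against control (limma adjusted p = 0.00258) and was not called with emodin against LPS_IFNg, at -0.50. Aloxe3 was called in neither, at -1.19 and 0.60.

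Conjugation, export and breakdown genes were called in both directions. Of 14 tested, 4 rose and 7 fell with emodin and 2 rose and 7 fell in LPS_IFNg against control. Mgst2 and Mgst3, microsomal glutathione transferases related to Ltc4s, were lower in both comparisons: Mgst2 differed by -1.35 with emodin and by -0.96 in LPS_IFNg against control, and Mgst3 by -1.40 and -1.82. Ltc4s, in contrast, had a positive difference with emodin on the array's own scale. The exporters differed too: Abcc4, a transporter of leukotrienes and prostaglandins, changed by -3.27 ± 0.18 with emodin (limma adjusted p = 1.92e-08) and Abcc1, the main leukotriene C4 exporter, by -0.32 ± 0.15 (limma adjusted p = 0.0735), while in LPS_IFNg against control Abcc1 rose by 1.01. Dpep2, a dipeptidase that cleaves leukotriene D4, differed by 0.98 with emodin and -1.08 in LPS_IFNg against control, and on the spike-in scale its emodin difference of 0.26 was not called (limma adjusted p = 0.162). Ptgr1, which inactivates leukotriene B4, changed by -1.22 with emodin. Cyp4f16, a cytochrome P450 of the family that oxidises leukotriene B4, changed by -3.66 ± 0.15 with emodin (limma adjusted p = 2.31e-09), and the LPS_IFNg difference from control, -0.13, was not called. Cyp4f18, the member of that family known for leukotriene B4 oxidation in mouse neutrophils, changed by -0.68 with emodin.

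**Figure D4:**
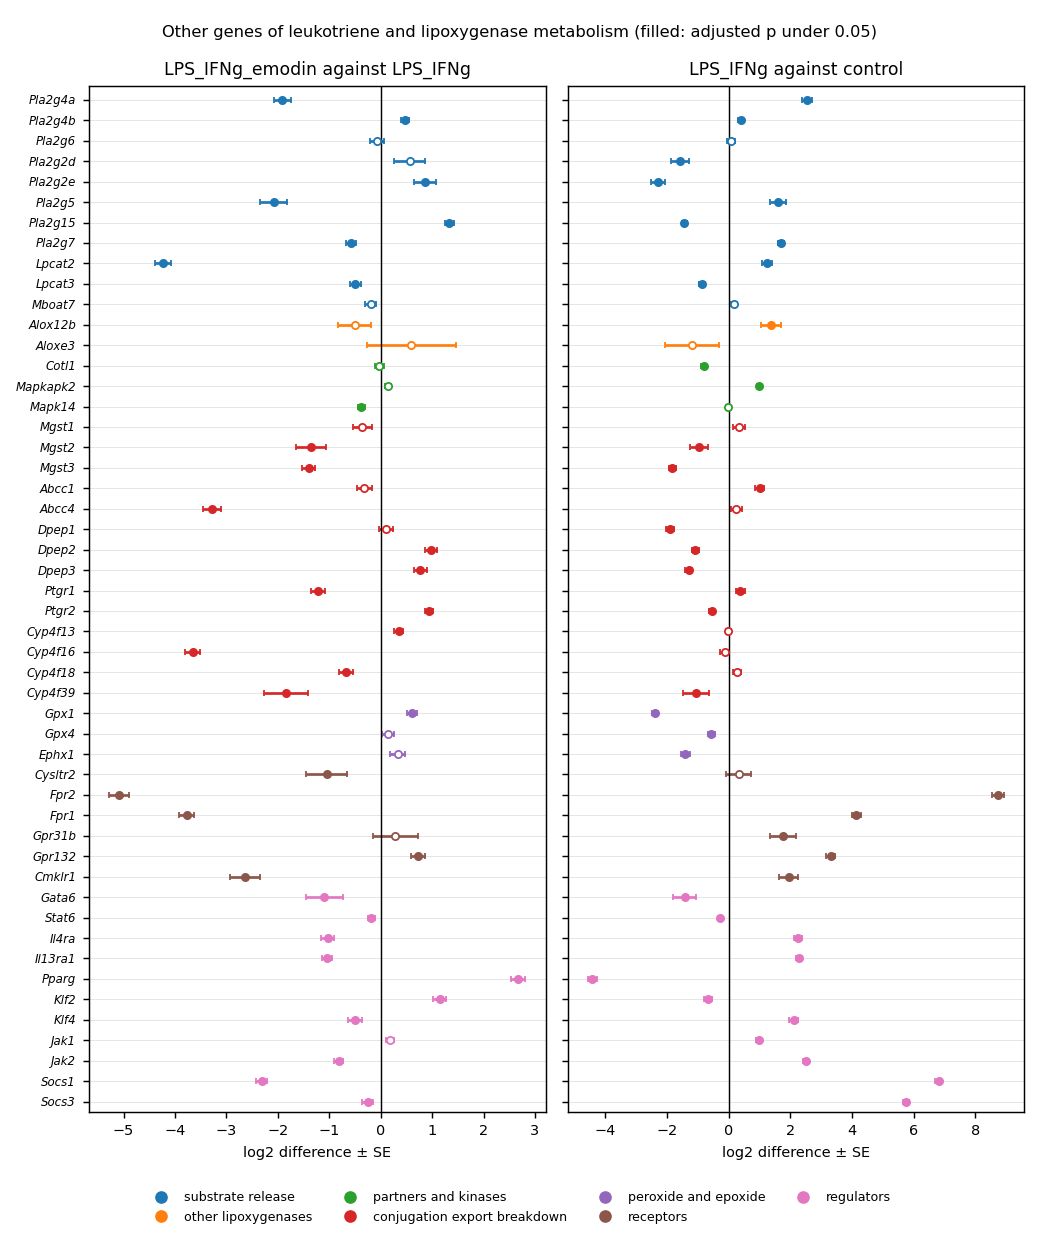
Log2 differences ± SE of the 50 tested genes around the pathway, coloured by role, in LPS_IFNg_emodin against LPS_IFNg (left) and LPS_IFNg against control (right), 4 arrays per group; filled points had a limma adjusted p under 0.05, and the 2 horizontal scales differ. Fpr2 and Lpcat2 lie farthest left with emodin, and Fpr2 and Socs1 farthest right in LPS_IFNg against control.

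Genes of peroxide reduction and epoxide hydrolysis were lower after stimulation. Gpx1, a glutathione peroxidase that removes the peroxides lipoxygenases need, averaged 6.84 on LPS_IFNg_emodin arrays, 6.23 on LPS_IFNg arrays and 8.61 on control arrays, without overlap. All 3 tested genes of this role fell in LPS_IFNg against control, Gpx1 by 2.38, Gpx4 by 0.57 and Ephx1 by 1.40. The emodin difference of Gpx1, 0.61 (limma adjusted p = 0.000157), turned to -0.12 on the spike-in scale and was not called there.

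Other receptors of lipid mediators moved unlike Ltb4r1 and Cysltr1 after stimulation, with 5 of 6 tested rising in LPS_IFNg against control and none falling. Fpr2, which binds lipoxin A4 as well as formyl peptides, was at 0.25 to 1.04 on LPS_IFNg_emodin arrays, 5.35 to 5.83 on LPS_IFNg arrays and -3.53 to -2.83 on control arrays. Gpr132, a receptor of oxidised fatty acids, was highest with emodin, at 6.43 to 6.66 on LPS_IFNg_emodin arrays, 5.63 to 5.95 on LPS_IFNg arrays and 2.09 to 2.82 on control arrays. Its emodin difference of 0.72 turned to -0.01 on the spike-in scale. Cysltr2, the other cysteinyl leukotriene receptor, changed by -1.05 ± 0.40 with emodin (limma adjusted p = 0.0342), and Ltb4r2, Gpr17 and Oxgr1 were not tested.

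Regulators known to act on lipoxygenase genes were called in both directions. Of 11 tested, 2 rose (Pparg and Klf2) and 8 fell with emodin against LPS_IFNg, and 7 rose and 4 fell in LPS_IFNg against control. Il4ra and Il13ra1, receptor chains of the cytokines that induce Alox15, rose in LPS_IFNg against control by 2.24 and 2.28 and changed by -1.03 and -1.05 with emodin against LPS_IFNg. Socs1, an inhibitor of cytokine signalling, changed by -2.31 with emodin and 6.81 in LPS_IFNg against control. Pparg, a nuclear receptor activated by lipoxygenase products, was at 3.31, 3.50, 3.65 and 3.49 on LPS_IFNg_emodin arrays, at 1.02, 0.84, 0.40 and 1.01 on LPS_IFNg arrays and at 5.26, 5.40, 5.19 and 5.11 on control arrays. The 3 groups did not overlap and stood in the order of Alox5 and Alox5ap. Its differences were 2.67 ± 0.13 with emodin (limma adjusted p = 1.12e-08), 1.94 on the spike-in scale, and -4.42 ± 0.13 in LPS_IFNg against control (limma adjusted p = 9.7e-11).

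The tested genes whose pattern over the 12 arrays was closest to each member were found by the root mean square difference between log2 values centred on each gene's mean. For Alox5 they included Cbr2, at 0.44, and Sort1. Cbr2, a carbonyl reductase, had log2 differences of 1.49 with emodin and -4.37 in LPS_IFNg against control. Rell1, at 0.10, 1810013A23Rik and Fam107b were closest to Alox5ap, and Cdk17, at 0.12, Tssc4 and Bcap31 to Lta4h. The transcription factor subunit Jun, at 0.13, Pskh1 and Gm11937 were closest to Ltc4s, and Xntrpc, at 0.07, Stxbp2 and Srr to Ltb4r1. AA414768, at 0.23, Dock2 and Zfp286 were closest to Cysltr1, and Dock2, a regulator of leukocyte migration, had a log2 difference of -4.00 with emodin and -0.11 in LPS_IFNg against control. The distances of Alox5 are the largest of the 6, and its LPS_IFNg signals lay at background.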

How the data were processed

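The 12 arrays were grouped by their labels into LPS_IFNg_emodin, LPS_IFNg and control. Per the submitters' processing notes, the deposited one-colour intensity values came from Agilent Feature Extraction, version 10.7.3.1. Per the file headers, the processed signal is background-subtracted, with no normalization between arrays. The deposited value table holds log2 values that matched the quantile-normalised processed signal centred on each probe's median (r at least 0.9992, column medians -0.0314 to 0.0416). Scale, centring and direction thus follow signal, but the columns of 3 control replicates matched scanner files of other control replicates, so the table served only as an alternative.

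Spots flagged as outliers were left out (78 to 415 of 59305 non-control spots per array). Replicate spots were averaged by probe, and the array's 75th percentile was subtracted from the log2 signal. Probes well above background on all 4 arrays of a group were kept (27380 of 55681). RefSeq accessions named 27509 probes with 1 symbol, 0 with several and 28172 with none; the assembly, GRCm38.p6, differs from the array's mm9 annotation and served only for names and promoters. The kept probe with the highest mean stood for each of 13169 genes, and 3355 genes had several. Means of 3 groups were estimated by limma 3.58.1, under R 4.3.3 (lmFit, eBayes, 9 residual and 2.49 prior degrees of freedom), two-sided, with calls under 0.05 after Benjamini-Hochberg adjustment over all genes. Exact permutation tests used scipy 1.17.1.

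Where no array of the dimmer group was well above background, the fold is a bound, "at least": the brighter group's mean against the dimmer group's mean of the higher of its own signal and the array's lowest signal well above background. Data were simulated for emodin against LPS_IFNg from 13169 genes, of which 200 were changed in each of 5 draws. There 58.4%, 82.8%, 96.4% and 99.6% of changes of 0.5, 1, 2 and 3 log2 units were called, and 0.091% of unchanged genes. In the data 72.2% of genes were called, which moves the adjusted threshold, so these shares hold for the simulated setting only. The number of arrays limits the precision.

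Emodin and LPS_IFNg arrays with the same replicate number deviated together (r = 0.229, 0.283, 0.162 and 0.15, each highest with its own number), and those with control arrays did not (-0.186 to 0.142). The main fit had no replicate block. These numbers were taken as pairs only in the pair differences, the permutation within pairs and the alternatives with a block. Alternatives changed the scaling, background correction, dim-probe filter, probe summary, eBayes settings, block and arrays. Normexp, with an offset of 50, used median foreground signals. Named genes were the 7 members, the wider list, the 3 nearest genes per tested member, activation checks and the marker lists; a few items are not reported here. The members, lists and tests were chosen with earlier results of these data known.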

Additional observations from a re-analysis of the deposited data

Results flagged for a closer look

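Of 24 sets of 4 levels checked (8 probes in 3 groups), 1 held an array far from the others by Dixon's criterion, which chance gives in about 1 of 20 sets. Ltc4s on LPS_IFNg replicate 1 was at 0.839, the highest of its group, with a gap to the next array of 0.856 of the group's range. Without that array, Ltc4s gave 1.08 for emodin against LPS_IFNg (limma adjusted p = 1.71e-06) and -1.17 for LPS_IFNg against control (limma adjusted p = 7.49e-07).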

How the results depend on the processing

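Of 471 values of the members under alternatives, 462 kept their direction and their side of the threshold, 2 lost the call, 4 gained it and 3 turned in direction. For emodin against LPS_IFNg, spike-in scaling gave Lta4h -0.52 (limma adjusted p = 0.0155), Ltb4r1 -0.24 (0.0736) and Ltc4s 0.23 (0.132), and the replicate block on the arrays of both groups gave Lta4h 0.21 (0.0243); the block changed no other call of a member. For LPS_IFNg against control, normexp gave Ltb4r1 -0.17 (0.151). For LPS_IFNg_emodin against control, the percentile over detected probes gave Ltc4s -0.29 (0.0416) and Ltb4r1 -0.036 (0.738), and normexp gave Ltb4r1 0.32 (0.00954). Leaving out 1 array at a time, Ltb4r1 there ranged between 0.13 and 0.19, and without LPS_IFNg replicate 1 its 0.16 was called (limma adjusted p = 0.0467). The fit of all 27380 kept probes called 19128, 17975 and 20293 probes in emodin against LPS_IFNg, LPS_IFNg against control and LPS_IFNg_emodin against control, where the gene fit called 9507, 9097 and 10267 genes, because it tests more features. For the replicate block within same-numbered pairs, the exact permutation p of each member was 0.125, the smallest 4 pairs allow. Between LPS_IFNg_emodin and control, other scalings put the median of all genes at -0.18 to -0.12, beside 0.02, and in LPS_IFNg against control the percentile over detected probes put it at -0.16, beside -0.04. Alox15 could only be fitted without the dim-probe filter, at 1.01 (0.166), 0.53 (0.422) and 1.55 (0.0274) in the 3 comparisons, from signals at background. Signal over background limits Alox5 in LPS_IFNg and the other Cysltr1 probe with emodin to bounds. The causes of these changes were not tested.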
